A study of Mus musculus with 8 samples.

Results

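Muscle fibres form when single myoblasts recognise each other, adhere and merge their membranes, and 7 genes of these steps are described here in C2C12 cells with reduced DOR. The genes are the fusogens Mymk and Mymx, the cadherins Cdh15 and Cdh2, the immunoglobulin adhesion molecule Ncam1 and the integrin chains Itga7 and Itgb1. They were chosen by function, with earlier results of these data known. Every probe set annotated with exactly 1 of these symbols was taken, which gave 19 of the 45037 probe sets tested and 7 of 18193 genes. Mymk, Mymx, Cdh15 and Itga7 had 1 probe set each, Cdh2 had 2, Itgb1 had 6 and Ncam1 had 7.

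Expression was measured on 8 one-colour Affymetrix arrays of C2C12 cells, a mouse myoblast line in long use that fuses into myotubes when serum is lowered. A lentivirus delivered siRNA against DOR to 4 cultures and scrambled RNA to the other 4. DOR is encoded by Trp53inp2, binds nuclear receptors as a cofactor and also acts in autophagy. Cells of both groups were transduced at a multiplicity of infection of 100, grown for 5 to 7 days, sorted for GFP to between 93 and 99% positive cells and held for 4 days in medium with 5% horse serum. The labels also call the samples confluent myoblasts, and their descriptions bear the mark D2, which they do not explain, so the stage at harvest is not settled by them. Nor do they say whether the cultures called biological replicates came from separate transductions, so the p-values measure the spread between these samples only.

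As background, Mymk (myomaker) is a membrane protein of several passes that a myoblast needs for fusion, and Mymx (myomerger or minion) is a small membrane peptide that acts with it to complete the merger. Cadherins hold cells together through calcium-dependent contacts and are tied to actin by catenins. Cdh15 is the muscle cadherin (M-cadherin) of satellite cells and myoblasts, and Cdh2 is the more widespread N-cadherin. Ncam1 is spliced into several forms, some anchored by a membrane-spanning domain and some by a lipid anchor, and its form is known to shift as myoblasts become myotubes. Itga7 and Itgb1 pair to make the main laminin receptor of skeletal muscle.

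The knockdown itself was seen in the brighter probe set of Trp53inp2, which ran from 10.92 to 11.55 log2 units on the scrambled arrays and from 9.18 to 9.93 on the knockdown arrays. The difference was -1.83 ± 0.17 log2 units (SE; limma adjusted p = 0.00087). The dimmer one showed no fall (0.14 ± 0.08, limma adjusted p = 0.519). Array medians lay between 6.14 and 6.20 log2 units. Of 27 muscle differentiation markers, 26 had a mean of at least 6.18, which is the median over all probe sets. The same held for 7 of 11 fibroblast markers, 4 of 8 neural, 3 of 6 adipocyte, 2 of 4 osteoblast and 2 of 8 leukocyte and endothelial markers, a coarse reading, since signals of different probes are not on 1 scale. One array stood apart in a control signal read as a sign of RNA quality, which was not measured directly here. The mean 3′ minus 5′ difference of the Actb and Gapdh control probe sets was 0.28 on DOR siRNA 2, against 0.06 to 0.15 on the other 7 arrays, and values without this array are given where it ends or adds a call among the 7 genes or the related lists, or moves the brightest probe set of 1 of the 7 by over 1.5 times.

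Ncam1 was the one gene of the 7 whose brightest probe set passed the test, and it was lower in the knockdown. The fusogens Mymx and Mymk were lower by smaller amounts that did not pass, and Cdh15, Cdh2, Itga7 and Itgb1 had differences of at most 0.16 log2 units in size by their brightest probe sets. Of the 19 probe sets 1 passed (limma adjusted p under 0.05 over all 45037 probe sets), in the downward direction. The background was that 3.22% of all probe sets passed, 1.19% lower and 2.04% higher, so 1 in 19 is near what the whole array gives. In the fit that pairs arrays by replicate number, 4 of the 19 passed, all lower (3 of Ncam1 and that of Mymx), where 6.28% of all probe sets passed and 2.81% did so downward. Groups did not overlap in 2 of the 19, against 9.85% of all probe sets, and these were the brightest probe sets of 2 of the 7 genes, against 12.2% of all genes. At an unadjusted p under 0.05 there were 5 of the 19, all lower, beside 6.88% of all probe sets lower at that level. Of the 19 differences 16 were negative and 3 positive, with a median of -0.13, while 49.3% of all probe sets had a negative difference and their median was 0.002. These are several probe sets of a few genes and not independent measurements. In 6 of the 7 brightest probe sets the difference was negative.

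**Figure D1:**
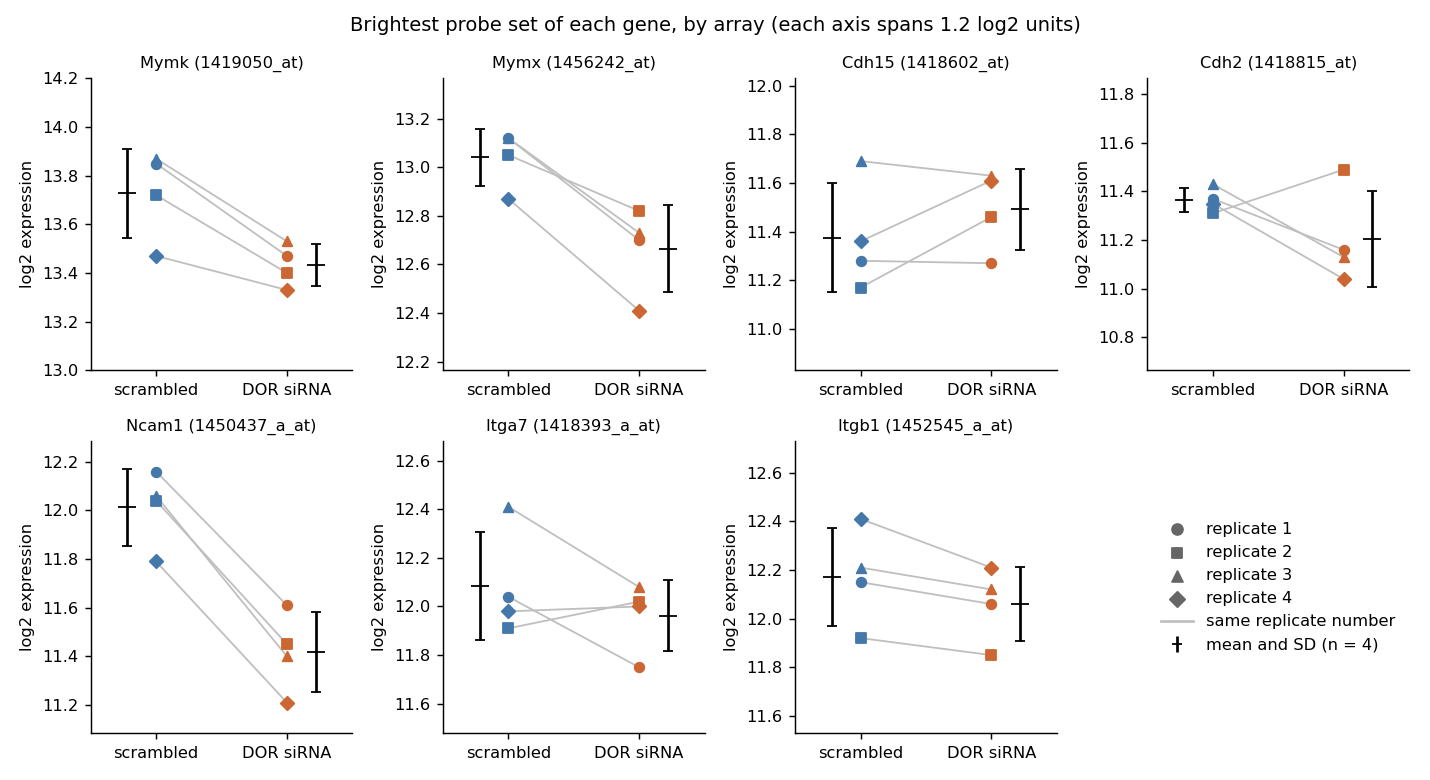
Log2 expression of the brightest probe set of each of the 7 genes on the 4 scrambled (blue) and 4 DOR siRNA (orange) arrays, with grey lines joining arrays of the same replicate number and black bars giving the mean and SD. Ncam1 and Mymx have groups that do not overlap, Mymk falls in each of 4 pairs with overlapping groups, the groups of Cdh15, Itga7 and Itgb1 overlap widely, and for Cdh2 DOR siRNA 2 lies above the scrambled arrays and the other 3 knockdown arrays below.

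The fusogens come first. Mymk read 13.85, 13.72, 13.87 and 13.47 log2 units in scrambled arrays 1 to 4 and 13.47, 13.40, 13.53 and 13.33 on the knockdown arrays. Each knockdown array was below the scrambled array of its number, but the groups overlapped, because scrambled 4 was as low as the knockdown arrays. The mean went from 13.72 ± 0.18 to 13.43 ± 0.09 (SD, n = 4 each), a difference of -0.29 ± 0.10 (SE) or 1.22-fold, which did not pass (limma adjusted p = 0.158). It passed without scrambled 4 (-0.38, limma adjusted p = 0.0315), and its limma adjusted p in the paired fit was 0.0586.

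Mymx separated the groups. It read 13.12, 13.05, 13.12 and 12.87 on the scrambled arrays and 12.70, 12.82, 12.73 and 12.41 on the knockdown arrays. Every knockdown value lay under every scrambled value, as was the case for 4.05% of all probe sets. The mean went from 13.04 ± 0.12 to 12.66 ± 0.18 (SD, n = 4 each), a difference of -0.38 ± 0.10 (SE) or 1.30-fold, with a 95% interval of 1.11- to 1.51-fold. That missed the threshold (limma adjusted p = 0.0738). Over all alternatives the adjusted p ran from 0.0226 to 0.206. It passed in the paired fit (limma adjusted p = 0.0226), without scrambled 4 (0.0400), with array weights (0.0236), with the 3′ minus 5′ difference as a covariate (0.0267) and when genes in place of probe sets were tested (0.0480).

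Whether the fusogens differed in how far they moved was asked with the within-array difference, Mymk minus Mymx. It was 0.69 ± 0.07 on the scrambled arrays and 0.77 ± 0.14 in the knockdown arrays (SD, n = 4 each). The shift of 0.08 did not exceed the spread (exact two-sided permutation p = 0.31, and 0.47 after Benjamini-Hochberg adjustment over the 3 gene pairs tested this way, where 0.0286 is the smallest p possible). Without DOR siRNA 2 the shift was 0.15, and every remaining knockdown value lay above every scrambled value. Its exact two-sided permutation p of 0.057 is the smallest that this lower number of arrays allows, so the test could not pass there. The shift was 0.05 without scrambled 4 and 0.03 without DOR siRNA 4. The absolute value of such a difference depends on the probes, and only its change between groups can be read.

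The cadherins showed no change past the test. Cdh15 read 11.28, 11.17, 11.69 and 11.36 on the scrambled arrays and 11.27, 11.46, 11.63 and 11.61 on the knockdown arrays. The groups overlapped almost wholly, and 2 of 4 pairs went each way. The difference was 0.12 ± 0.12 (limma adjusted p = 0.741), and its 95% interval ran from -0.15 to 0.38. Leaving out 1 array moved it between 0.05 (without scrambled 2) and 0.22 (without scrambled 3), with no call. Cdh15 was the only gene of the 7 with a positive difference in its brightest probe set.

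Cdh2 read 11.37, 11.31, 11.43 and 11.35 on the scrambled arrays and 11.16, 11.49, 11.13 and 11.04 on the knockdown arrays by its brighter probe set. The scrambled arrays were tight (SD 0.05) and the knockdown arrays were not (SD 0.20), since 3 of them lay below the scrambled range and DOR siRNA 2 lay above it. The dimmer probe set read 10.02, 10.23, 9.79 and 9.68 in the knockdown arrays against 9.98 to 10.14 in the scrambled ones, with DOR siRNA 2 again above that range, 2 arrays below it and DOR siRNA 1 inside. Neither passed (-0.16 ± 0.10, limma adjusted p = 0.509, and -0.13 ± 0.11, limma adjusted p = 0.664). Without DOR siRNA 2, the array with the deviating 3′ minus 5′ value, the brighter probe set differed by -0.26 and the dimmer by -0.23, and again they did not pass (limma adjusted p = 0.105 and 0.249). Without DOR siRNA 4 they differed by -0.11 and -0.05. The part of RNA quality in this was not tested.

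Within arrays, Cdh15 minus Cdh2 was 0.01 ± 0.17 in the scrambled group and 0.29 ± 0.29 in the knockdown group (SD, n = 4 each). It was higher in the knockdown in 4 of 4 pairs, but the shift of 0.28 did not exceed the spread (exact two-sided permutation p = 0.20, 0.47 adjusted over the 3 pairs). In the paired form it had an exact p of 0.125, which is the smallest that 4 pairs allow.

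**Figure D2:**
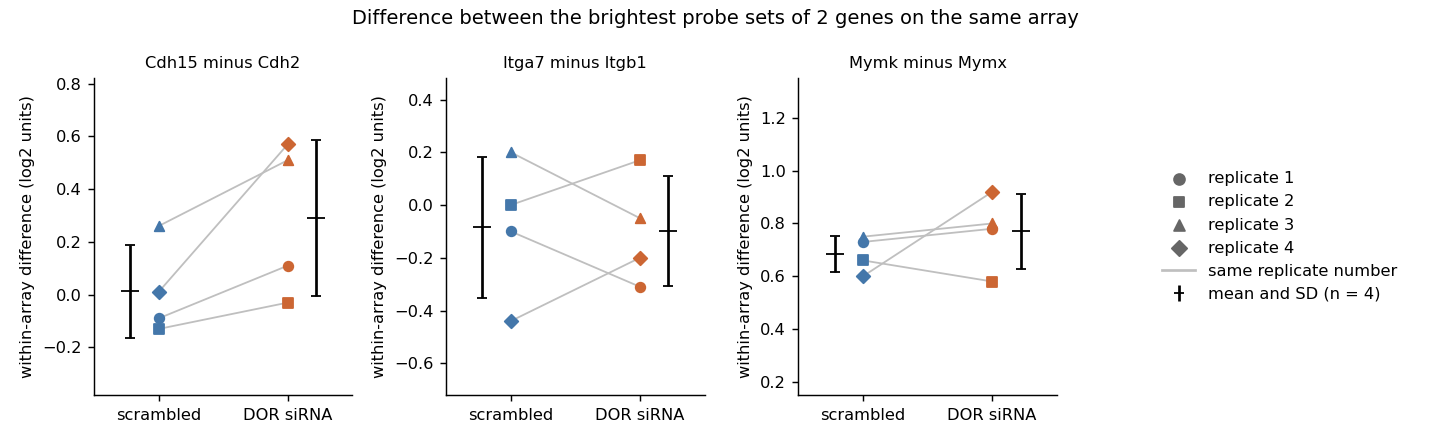
Within-array difference between the brightest probe sets of 2 genes (log2 units) for Cdh15 minus Cdh2, Itga7 minus Itgb1 and Mymk minus Mymx on the scrambled and DOR siRNA arrays, with lines joining arrays of the same number and bars for the mean and SD. The groups overlap in all 3 panels, and the Cdh15 minus Cdh2 difference is higher in the knockdown in 4 of 4 pairs.

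Ncam1 gave a different answer from one probe set to another. The brightest, 1450437_a_at, read 12.16, 12.04, 12.06 and 11.79 on the scrambled arrays and 11.61, 11.45, 11.40 and 11.21 on the knockdown arrays. All knockdown values were below all scrambled values. The pairwise differences were close to one another, at -0.55, -0.58, -0.66 and -0.58. Its mean went down from 12.01 ± 0.16 to 11.42 ± 0.16 (SD, n = 4 in either group), a difference of -0.59 ± 0.11 (SE) or 1.51-fold (95% interval 1.28 to 1.77; limma adjusted p = 0.0146, and 0.0038 in the paired fit). The call was lost, with little change in size, without scrambled 1 (-0.54, limma adjusted p = 0.0523), scrambled 3 (-0.58, 0.0541) or DOR siRNA 3 (-0.59, 0.0502).

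Of the other Ncam1 probe sets, 1425126_at and 1439556_at had differences of the same size. The first read 9.43, 9.29, 9.06 and 8.84 on the scrambled arrays and 8.68, 9.09, 8.28 and 8.25 in the knockdown arrays, a difference of -0.58 ± 0.19 (limma adjusted p = 0.131). The second read 8.75, 7.97, 8.56 and 8.75 against 8.01, 7.73, 7.80 and 8.22, a difference of -0.57 ± 0.17 (limma adjusted p = 0.106). Both were lower in 4 of 4 pairs, with groups that overlapped through DOR siRNA 2 in the first and scrambled 2 in the second. Both passed in the paired fit (limma adjusted p = 0.0149 and 0.0133), and the first passed without DOR siRNA 2 (-0.75, limma adjusted p = 0.0267).

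The probe sets 1426864_a_at and 1426865_a_at showed no such fall. They read 10.21, 10.01, 10.20 and 9.90 and 9.77, 9.61, 9.67 and 9.68 in the scrambled arrays. In the DOR siRNA arrays they read 10.19, 10.69, 9.98 and 9.93 and 9.82, 9.92, 9.48 and 9.55. DOR siRNA 2 was the highest of all 8 arrays in both. The differences were 0.12 ± 0.15 (95% interval -0.22 to 0.46; limma adjusted p = 0.816) and 0.01 ± 0.10 (-0.22 to 0.24; 0.984), and without DOR siRNA 2 they were -0.05 and -0.06. The upper bound of the interval of the brightest probe set, -0.36, lay below the lower bounds of both. The contrast between probe sets was chosen after their values were seen and is given no test. Which exons or splice forms the probe sets read is not stated in the sources used here. A probe set ending in _a_at is one that can read several transcripts of a gene.

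The remaining Ncam1 probe sets were dimmer. With a mean of 7.29, 1450438_at differed by -0.31 ± 0.16 (limma adjusted p = 0.405), was lower in 3 of 4 pairs and passed without DOR siRNA 1 (-0.50, limma adjusted p = 0.0382). With a mean of 4.54, below the median of all probe sets, 1421966_at was not shown to be above background and differed by -0.15 ± 0.11 (limma adjusted p = 0.576). As the mean over all 7 probe sets Ncam1 differed by -0.30, which did not pass (limma adjusted p = 0.0777).

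**Figure D3:**
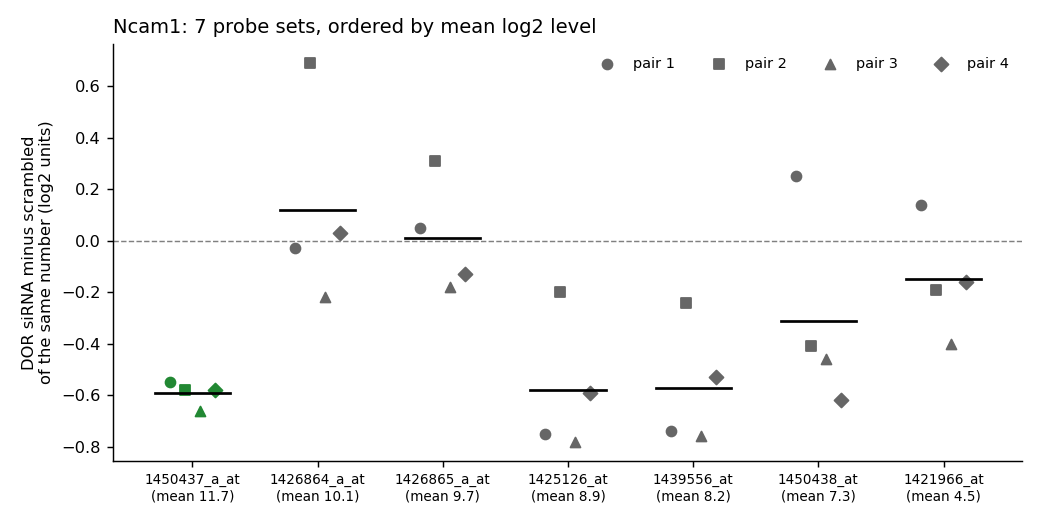
Difference of each DOR siRNA array from the scrambled array of the same number (log2 units) for the 7 probe sets of Ncam1, ordered by mean level, with a black bar at the mean; green marks the probe set that passed the test. The brightest has 4 differences between -0.66 and -0.55, while 1426864_a_at and 1426865_a_at lie around 0 with pair 2 highest.

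The integrin chains of the laminin receptor had small differences. Itga7 read 12.04, 11.91, 12.41 and 11.98 on the scrambled arrays and 11.75, 12.02, 12.08 and 12.00 on the knockdown arrays, with overlapping groups and 2 of 4 pairs in each direction. The difference was -0.12 ± 0.12 (95% interval -0.38 to 0.14; limma adjusted p = 0.719). It was -0.01 without scrambled 3 and -0.05 without DOR siRNA 1. Itgb1, the beta chain shared by many integrins, read 12.15, 11.92, 12.21 and 12.41 on the scrambled arrays and 12.06, 11.85, 12.12 and 12.21 on the knockdown arrays by its brightest probe set. Each knockdown array was slightly below its pair, by 0.07 to 0.20, while the cultures of a group differed among themselves by more. The difference was -0.11 ± 0.11 (95% interval -0.36 to 0.14; limma adjusted p = 0.739). It shrank to -0.03 and -0.04 when scrambled 4 or DOR siRNA 2 was omitted and was -0.20 without scrambled 2, with no call.

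The 5 other Itgb1 probe sets had differences from -0.15 to -0.03, and none of the 6 passed. The second brightest, 1426918_at, also was lower in 4 of 4 pairs (-0.13 ± 0.10, limma adjusted p = 0.632). The probe sets 1426920_x_at, 1438119_at and 1426919_at had means of 5.17, 4.05 and 3.09, all below 6.18, and say little about the gene. The _x_at ending marks probes that may also bind other transcripts. Itga7 minus Itgb1 within arrays was -0.09 ± 0.26 on the scrambled arrays and -0.10 ± 0.21 in the knockdown arrays (SD, n = 4 each; exact two-sided permutation p = 0.94). Leaving out 1 array moved the shift of -0.01 between -0.13 (without scrambled 4) and 0.08 (without scrambled 3), and it was -0.10 without DOR siRNA 2.

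**Figure D4:**
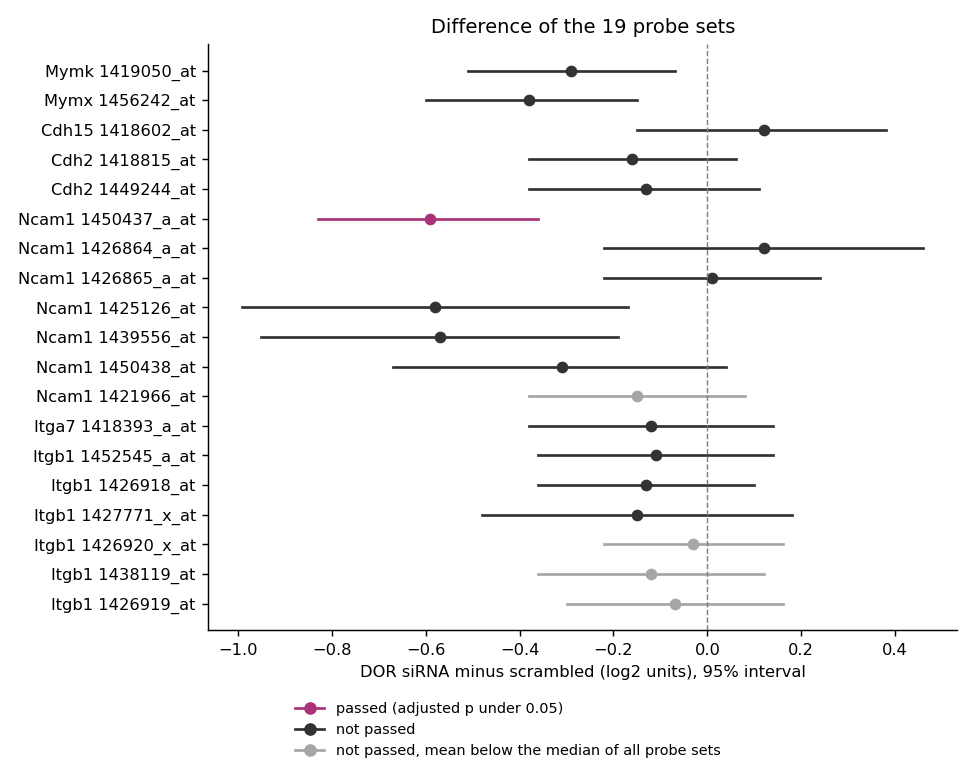
Difference DOR siRNA minus scrambled (log2 units) with its 95% interval for the 19 probe sets of the 7 genes. Purple marks the 1 probe set that passed, grey the 4 whose mean lay below the median of all probe sets; 16 of the 19 points lie left of 0.

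Other genes of fusion and adhesion were read from lists by function, also chosen with earlier results known, each gene by its brightest probe set. By that measure 4.56% of all 18193 genes passed, 3.11% higher and 1.45% lower, and the median difference over all genes was 0.015. At an unadjusted p under 0.05, in either direction, there were 18.0% of all genes. In the paired fit 8.25% of all genes passed. Of 38 measured genes of myoblast fusion besides the 7, 2 rose, 0 fell and 36 did not pass by limma, with 12 at an unadjusted p under 0.05 and a median of 0.03. Without DOR siRNA 2, when 4.14% of all genes passed, 3 were higher and 3 lower. The higher ones were Il4ra (0.39), Ehd2 (0.46) and Cd9 (0.58), and the lower ones Dock5 (-0.39), Trio (-0.50) and Dysf (-0.70). Dock1, an exchange factor that activates Rac for fusion, rose from 8.13 ± 0.13 to 8.50 ± 0.10 (SD, n = 4 each; 0.37 ± 0.09, limma adjusted p = 0.0454), and the interleukin 4 receptor chain Il4ra rose from 6.70 ± 0.07 to 7.21 ± 0.28 (0.52 ± 0.12, limma adjusted p = 0.0484). Both calls were close to the threshold. Dock1 lost its call without any one of 7 arrays, all but scrambled 4 (without DOR siRNA 2 0.33, limma adjusted p = 0.0827). The same held in the paired fit (limma adjusted p = 0.0509), with array medians centred (0.0507) and with a variance trend and robust prior (0.0548). In the mean over its probe sets Dock1 differed by 0.22, again without a call (limma adjusted p = 0.175). Il4ra lost it without any one of scrambled 1, 2, 3 or 4 or DOR siRNA 1 or 3 (up to 0.136) and with array medians centred (0.0666) or cyclic loess (0.0581), and in the mean over its probe sets it differed by 0.22 (0.110).

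The paired fit called 6 fusion genes, 3 higher and 3 lower. The higher ones were Il4ra, Ehd2 (0.35 ± 0.08) and the tetraspanin Cd9 (0.50 ± 0.08), and the lower ones were Cav3 (-1.55 ± 0.14), Cap2 (-0.86 ± 0.12) and Dysf (-0.54 ± 0.12). Apart from Il4ra these are named after their values were seen. Cav3, the caveolin of muscle, had the largest difference of the list, 2.92-fold lower with groups that overlapped (9.30 to 10.72 scrambled, 7.45 to 9.45 knockdown), and did not pass the unpaired fit (limma adjusted p = 0.0660). Dysf encodes dysferlin, a membrane repair protein.

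None of 22 cadherin partners and related cadherins passed by limma, against 5 at an unadjusted p under 0.05, and their median was 0.04. The smallest p values belonged to Cdh1, E-cadherin (-0.59 ± 0.15, limma adjusted p = 0.0656), whose means of 4.27 and 3.68 lay below the median of all probe sets, and to the catenin-like Ctnnal1 (0.40 ± 0.13, limma adjusted p = 0.156). Both passed in the paired fit (limma adjusted p = 0.0142 and 0.0388), and Ctnnal1 also passed without scrambled 4 (0.55, limma adjusted p = 0.0089).

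Of 18 other integrin subunits 2 fell, 0 rose and 16 did not pass, while 7 had an unadjusted p under 0.05 and the median of the list was 0.14. Itgb6, the beta chain of a receptor that activates TGF-beta, ran from 8.18 to 8.84 on the scrambled arrays and from 7.15 to 7.60 in the knockdown arrays. The groups were well apart, and Itgb6 fell by 1.02 ± 0.14 log2 units, or 2.02-fold (limma adjusted p = 0.0052), in 4 of 4 pairs and in 2 of its 2 probe sets. It kept its call in each of its 16 alternatives. Itga6, another laminin-binding alpha chain, fell from 11.16 ± 0.15 to 10.63 ± 0.19 (SD, n = 4 each; -0.53 ± 0.11, limma adjusted p = 0.0298). The call was lost when scrambled 1 or 3 was left out, and when DOR siRNA 1, 3 or 4 was (limma adjusted p up to 0.0939). Averaging its 2 probe sets gave -0.51 (0.0511). In the paired fit Itga10 rose as well (0.55 ± 0.10, limma adjusted p = 0.0186; named after its values were seen).

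None of 16 integrin adaptors passed by limma, with 7 at an unadjusted p under 0.05 and a median of 0.12. Lims2, which binds ILK, differed by 0.48 ± 0.13 (limma adjusted p = 0.0826) and the focal adhesion adaptor Pxn, paxillin, by -0.38 ± 0.11 (0.0908). Both passed in the paired fit (limma adjusted p = 0.0098 and 0.0296), with array weights, with the 3′ minus 5′ covariate and without scrambled 4. Pxn also passed without DOR siRNA 2 (-0.46, limma adjusted p = 0.0413).

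The last list holds 16 matrix proteins, surface ligands, soluble factors (among them Fgf2 and Gdnf) and enzymes that modify Ncam1 (the sialyltransferases St8sia2 and St8sia4). Of these 2 rose, 0 fell and 14 did not pass, with 5 at an unadjusted p under 0.05 and a median of 0.16. Nid1, nidogen of the basement membrane, rose from 10.65 ± 0.23 to 11.26 ± 0.12 (SD, n = 4 each; 0.61 ± 0.11, limma adjusted p = 0.0177), and 1 of its 3 probe sets passed. Vcam1, the ligand of alpha 4 integrins, rose from 9.22 ± 0.08 to 9.98 ± 0.40 (0.76 ± 0.16, limma adjusted p = 0.0311), and 3 of its 3 probe sets passed. Nid1 lost its call without DOR siRNA 3 (limma adjusted p = 0.0541), and Vcam1 when scrambled 1, 2 or 3 was left out or DOR siRNA 1 or 3 was (up to 0.0942).

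**Figure D5:**
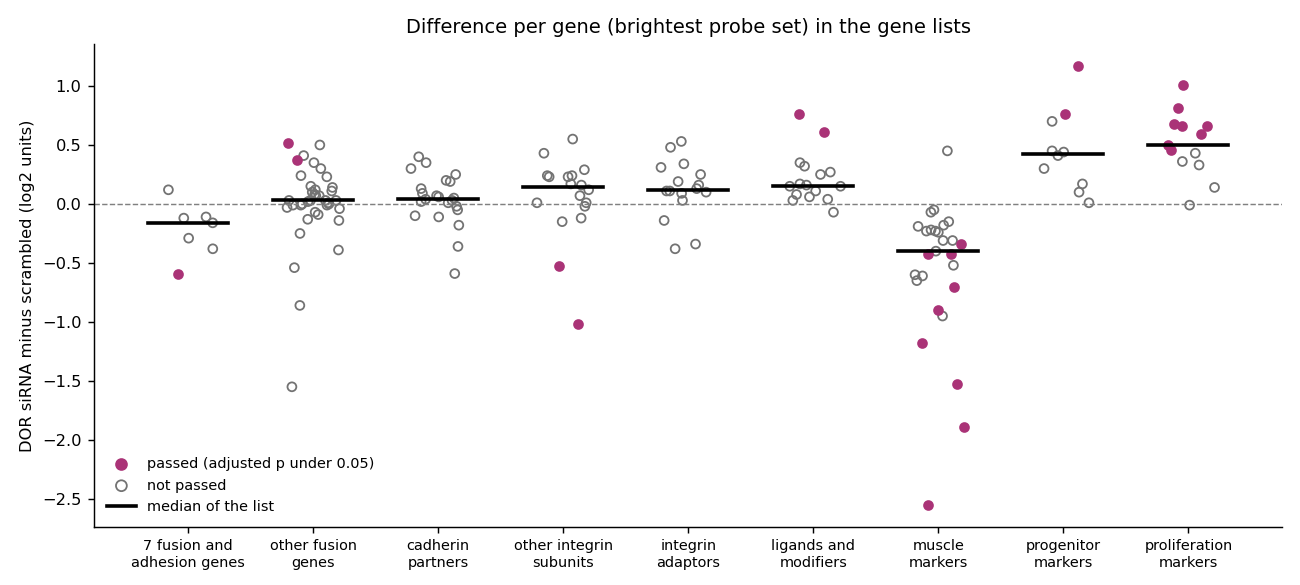
Difference DOR siRNA minus scrambled (log2 units) per gene, by brightest probe set, for the 7 genes, the 5 lists of related genes and 3 lists of marker genes; filled points passed the test and black bars are list medians. The 7 genes have a median of -0.16, between that of the muscle markers (-0.40) and those of the related lists (0.03 to 0.16).

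Lists of marker genes, each gene by its brightest probe set, also differed between the groups. By that measure 4.56% of all genes passed, 3.11% higher and 1.45% lower, and 18.0% had an unadjusted p under 0.05. Of 27 muscle differentiation markers 9 fell, 0 rose and 18 did not pass, with a median of -0.40, and the mean log2 level over the list ran from 11.99 to 12.34 on the scrambled arrays and from 11.39 to 11.74 in the knockdown arrays. Of 13 proliferation markers 8 rose and 0 fell (median 0.50; 8.86 to 9.09 against 9.43 to 9.63), and of 10 progenitor markers 2 rose, Vcam1 again among them, and 0 fell (median 0.43; 7.90 to 8.06 against 8.36 to 8.61). Among markers of other cells, 1 of 11 fibroblast genes rose, Pdgfra, with list means of 8.50 to 8.63 against 8.43 to 9.04. By limma none of 4 osteoblast, 6 adipocyte, 8 leukocyte and endothelial and 8 neural genes passed, with 0, 1, 1 and 2 at an unadjusted p under 0.05 in turn. In the paired fit, where 8.25% of all genes passed, 14 muscle markers were lower and 1 higher. The higher one was Myf5, which is also on the progenitor list. Of the other lists, 10 proliferation and 4 progenitor markers were higher, 3 fibroblast markers were higher and 1 lower, and 1 adipocyte and 1 neural marker were higher. The part of these shifts in the Ncam1 and fusogen values was not tested, and in bulk RNA fewer cells of a kind and less RNA per cell cannot be told apart. Against this background Myod1, which starts the muscle program, differed by -0.05 ± 0.10 (limma adjusted p = 0.894). Myog, its partner at the onset of differentiation, differed by -0.31 ± 0.09 (0.0826), a size near those of Mymk and Mymx. Of the other regulators on the muscle list, Mef2c (-1.53 ± 0.16, limma adjusted p = 0.0014) and Mef2a (-0.42 ± 0.09, 0.0349) fell. Myf6 (-0.40 ± 0.23, 0.489) and Myf5 (0.45 ± 0.13, 0.0796) did not pass. These regulators are named after their values were seen.

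The genes whose levels followed Ncam1 most closely over the 8 arrays, among 3409 genes with a mean no lower than the overall median and an SD of at least 0.2, were Adipor2 (Pearson r = 0.993), Myom2 (0.986) and Tnnt2 (0.985). Adipor2 is an adiponectin receptor, Myom2 a protein of the sarcomeric M-band and Tnnt2 the cardiac troponin T that immature muscle also makes. Their differences were -0.39 ± 0.08, -0.50 ± 0.09 and -0.42 ± 0.09 log2 units, values that the choice by likeness to Ncam1 over all 8 arrays largely fixes and that are given with no test. Within the groups, after the group means were removed, r was 0.977, 0.919 and 0.933. The points share arrays and normalization, and the highest of so many correlations over so few arrays are high in any case, so these values are a description.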

How the data were processed

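Total RNA, 25 ng per culture, was amplified by a kit for whole transcriptomes before hybridisation, per the labels' protocols. The deposited log2 values, 1 per probe set and array, are the authors' RMA output, as the submitters' processing notes name it. RMA corrects background, quantile normalizes and summarises probes. Its version is not given in the sources used here. Depth has no meaning for arrays; their number limits the precision. After 64 Affymetrix controls were set aside, limma 3.58.1 (R 4.3.3; lmFit on group, eBayes) compared the groups, with Benjamini-Hochberg adjustment over 45037 probe sets and a threshold of 0.05. Differences are DOR siRNA minus scrambled, with the model's SE. Names came from the platform annotation, where 34945 had 1 symbol (34741 matched RefSeq gene identifiers, 0 were renamed), 932 several and 9160 none; the latter kinds were tested but not named. A gene's brightest probe set has the highest mean over 8 arrays. The rule for naming genes took all members, up to 3 called genes of each related list (or the 2 with the smallest p) and the 3 most like each called member. Trp53inp2 was named as the check of the knockdown. Other list genes whose values or calls are given, such as Dock5, Trio and Pdgfra, were named after these were seen. The members and lists were chosen with earlier results of these data known.

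Arrays with the same number deviated together from their group means (r from 0.142 to 0.468, each above 0.1, against -0.394 to 0.265 for other combinations). The ranges overlapped, since scrambled 2 with DOR siRNA 1 (0.265) exceeded the same-number values of replicates 1 (0.149), 2 (0.192) and 3 (0.142). Scrambled 1 with DOR siRNA 2 (0.183) also exceeded those of replicates 1 and 3. Scrambled 1 and scrambled 2 thus each had their highest r with a knockdown array of another number. The replicate numbers are shared in the labels, which state no block. Pairing by number was thus chosen from these same data. The fit with the number as a block, the paired fit, is an alternative whose calls depend on that choice. Exact permutation tests used scipy 1.17.1. The steps were tested on simulated data for this comparison (4 against 4 arrays, 45037 probe sets): 57% of the 0.5 log2 unit changes and 98% of those of 1 were found, and 6.27% of calls were false. The simulated arrays had independent normal noise and 200 changed probe sets. They lacked the shared deviations and the deviating array of the real data, so these shares may not carry over. Alternatives were the paired fit, a variance trend with robust prior, cyclic loess, centred medians, only probe sets at or above the median, array weights, the 3′ minus 5′ covariate, gene means and leaving out each array.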

Additional observations from a re-analysis of the deposited data

Results flagged for a closer look

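Among 64 groups of 4 arrays examined for one lying apart, 2 had one beyond Dixon's critical value at 95%, where chance gives about 1 in 20. The probe set of Ctnnal1 read 8.07 on scrambled 4 and 7.46 to 7.51 on the other scrambled arrays. The probe set of Itgb6 read 7.15 on DOR siRNA 4 and 7.58 to 7.60 on the other knockdown arrays. None of the 19 probe sets of the 7 fusion and adhesion genes had such an array.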

How the results depend on the processing

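Of the 288 values of the 19 probe sets under alternatives, 258 kept direction and side of the threshold, 4 lost a call, 14 gained one and 12 changed sign. The paired fit (replicate block) called 2827 of all probe sets, 4 of the 19 (all lower), 6 fusion genes, 2 cadherin partners and 2 integrin adaptors. Array weights called 2628, 4 of the 19, 7 fusion genes and 2 adaptors. The 3′ minus 5′ covariate called 2634, 3 of the 19, 7 fusion genes, 4 integrin subunits and 3 adaptors. Cyclic loess and centred medians each called 1 fusion gene, higher in the knockdown. With centred medians that gene was neither Dock1 (limma adjusted p = 0.0507) nor Il4ra (0.0666). Of the calls of Trp53inp2, Ncam1 and the related lists, the paired fit ended that of Dock1.

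Leaving out 1 array moved the total from 608 (without scrambled 3) to 2310 (without scrambled 4). The 19 probe sets then held 0 to 3 calls: 0 without scrambled 1 or 3 or DOR siRNA 3, 2 without scrambled 2 or DOR siRNA 1 or 2, and 3 without scrambled 4. The ranges were 0 to 6 for fusion genes, 0 to 1 for cadherin partners, 1 to 2 for integrin subunits, 0 to 2 for adaptors and 0 to 2 for ligands.

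Sign changes were small and confined, among the single probe sets, to 1426864_a_at (-0.02 with array weights; -0.05 to 0.21 leaving out 1 array) and 1426865_a_at (-0.02 with the covariate, -0.05 with array weights; -0.06 to 0.08) of Ncam1 and 2 dim probe sets of Itgb1 (-0.07 to 0.01 and -0.12 to 0.0032). Itga7 minus Itgb1 ran from -0.13 to 0.08. The causes were not tested. Dim probe sets may understate differences, which was not tested here.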
